A study of Mus musculus with 18 samples.

Results

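The 8 interferon regulatory factor genes Irf1, Irf2, Irf3, Irf4, Irf5, Irf7, Irf8 and Irf9 were followed across 18 RNA sequencing libraries of mouse cells, in 6 groups of 3. Members were found by gene symbol among 22612 lines for cultured cells and by the Ensembl identifier of the symbol among 55401 genes for endothelial cells, and all 8 were present in both. EO771, a mouse breast cancer line, was given vehicle (DMSO in saline) or 12-HETE, the lipid made from arachidonic acid by the enzyme ALOX12, at the single dose and time of the methods. The endothelial libraries came from wild-type female C57BL/6 mice obtained at a few weeks of age and were sorted as CD45- CD31high cells. Blood vessel endothelial cells (BECs, PNAd-) were taken from the mammary fat pad (BEC normal) or from primary EO771 tumours grown there (BEC tumour). High endothelial cells (HECs, PNAd+), which line the venules through which lymphocytes enter lymph nodes, were taken from nodes of mice without tumours (HEC normal) or from nodes that the labels call lymph node metastases (HEC tumour). HECs and BECs came from different organs, so cell type and organ cannot be told apart. Metastasis in the node and a tumour elsewhere in the mouse cannot be told apart in HEC tumour either. The labels do not say whether replicates were separate mice or cultures, while the legends of the study give n as independent experiments, and every p-value measures the spread between these libraries.

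Interferon regulatory factors are transcription factors that bind repeats of GAAA in the promoters of interferons and interferon-stimulated genes. IRF3 and IRF7 are activated below sensors of foreign nucleic acid and switch on type I interferons, and IRF5 is activated below Toll-like receptors through MYD88. Secreted interferon then acts through JAK kinases to assemble ISGF3, a complex that includes STAT2 and IRF9 and whose targets include Irf7 itself. IRF1 activates and IRF2 mostly represses overlapping sets of targets, and IRF4 and IRF8 are best known from lymphocytes and myeloid cells, where they bind DNA with partners such as PU.1 and BATF proteins.

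The total value per library ran from 56.4 to 79.4 M in endothelial cells and from 17.3 to 18.6 M in EO771. The endothelial values rose in steps of about 3.7, and the scaling behind the step is not stated. Each step was taken as about 1 fragment, so that a value of 1 stands for less than 1 fragment. The totals divided by the step ran from 15.2 to 21.4 M. Summed endothelial markers lay between 2460 and 3390 CPM, counts scaled to library size, in the 12 sorted libraries and between 2.74 and 12.0 in EO771. Summed high endothelial markers lay between 975 and 3060 CPM in HECs and between 6.21 and 11.8 in BECs. Chst4, a sulfotransferase of high endothelium, was at 4.07 normalised counts in the second HEC normal library (replicate 2) and at 19910 and 20210 in the others, while Glycam1 was at 39130 there against 40090 and 40340. Within BEC tumour, replicate 3 held 2235 normalised counts of the keratin Krt8 against 35.2 and 179 in the others. Leaving out either library changed no call of a member in the tumour comparison to which it belongs. The markers of all leukocytes (Ptprc, Coro1a, Laptm5 and Cd52) summed to 69.7 to 110 CPM in BEC tumour and to 3.22 to 6.01 in BEC normal, although the cells were sorted as CD45-. The 10 myeloid and dendritic markers summed to 1510 to 2030 CPM in BEC tumour and 109 to 131 in BEC normal, and none of the 10 was at 0 in BEC tumour. In bulk libraries, fewer cells of a type and less RNA per cell cannot be told apart.

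Promoter windows were searched because several of these genes are targets of the factors that the family and the STAT proteins form. RefSeq windows on GRCm38.p6, from 250 bases before to 50 bases after a transcription start, were present for 8 of 8 members, in 11 windows. The interferon-stimulated response element (ISRE, searched as GAAANNGAAA) was in 3.44% and the GAS motif, a site for STAT dimers, (searched as TTCNNNGAA) in 8.3% of 32851 windows of all genes, on either strand. Each ISRE holds a pair of GAAA elements, and the GAS letters can share bases with one. The ISRE letters were found in the window of Irf2 and the GAS letters in windows of Irf1, Irf2 and Irf8, shown here with the motif in capitals and with the distance of its first base from the start.
Irf1 GAS, -90, GRCm38.p6 chr11:53769914-53769943, plus strand: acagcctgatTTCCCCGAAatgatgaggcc
Irf2 ISRE, -241, GRCm38.p6 chr8:46739495-46739524, plus strand: tggggaagtGAAAATGAAAttgacttttcc
Irf2 GAS, -224, GRCm38.p6 chr8:46739511-46739540, plus strand: aaattgacttTTCCGAGAAatgatgaaagc
Irf8 GAS, -171, GRCm38.p6 chr8:120736177-120736206, plus strand: caaaagtgatTTCTCGGAAagagagcgctt
Irf8 GAS, -153, GRCm38.p6 chr8:120736195-120736224, plus strand: aagagagcgcTTCAGAGAAggcggatttgg
The windows of Irf3, Irf4, Irf5, Irf7 and Irf9 held neither motif as spelled, which says only that these letters are not in these windows. The Irf7 window is given whole, since Irf7 had the widest range of levels of the family, with its single GAAA element in capitals, 6 bases before the start and read on the opposite strand. The letters GAAA alone were in 89.2% of all windows.
Irf7, GRCm38.p6 chr7:141266375-141266674, minus strand: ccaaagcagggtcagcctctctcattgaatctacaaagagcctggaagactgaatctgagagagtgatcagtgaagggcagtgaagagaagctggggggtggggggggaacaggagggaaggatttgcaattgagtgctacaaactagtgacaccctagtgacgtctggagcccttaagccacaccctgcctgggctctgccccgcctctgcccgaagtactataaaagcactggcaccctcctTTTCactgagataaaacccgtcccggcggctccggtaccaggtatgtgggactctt

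The first comparison asked how the family differed between EO771 cells given 12-HETE and those given vehicle. Irf1, Irf5, Irf7 and Irf9 fell, Irf7 from among the most abundant members per kb to one of the scarcest, and no member rose. Calls required an adjusted p under 0.05 (two-sided Wald test of DESeq2, Benjamini-Hochberg over all genes tested) together with a fold change over 2. Of 7 members tested, 4 were called lower, while 7.79% of all 11602 genes tested were called lower and 10.2% called in either direction. No member was called higher by DESeq2 or by the edgeR quasi-likelihood test, and 0 had an unadjusted p under 0.05 in that direction. The median log2 fold change was -1.44 over the 7 members and 0.00 over all genes. In 7 of 7 members no 12-HETE library reached into the range of vehicle, as was so for 60.7% of all genes tested.

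Among the factors activated below nucleic acid sensors, Irf7 (ENSMUSG00000025498, chromosome 7, 141262706 to 141266481, minus strand) had 15203, 19499.6 and 14453 normalised counts with vehicle. With 12-HETE it had 67.8, 85.7 and 64.0. Every 12-HETE library lay more than 100-fold below every vehicle library, and the fitted change was -7.82 ± 0.18 (SE) on the log2 scale, a 226-fold lower level, with an adjusted p too small for DESeq2 to represent. Irf5 (ENSMUSG00000029771, chromosome 6, 29526625 to 29541871, plus strand) had 766, 495 and 744 normalised counts with vehicle and 69.8, 72.9 and 52.2 with 12-HETE. It fell by 3.36 ± 0.23, or 10.3-fold, with a DESeq2 adjusted p of 1.11e-47. Irf3 (ENSMUSG00000003184, chromosome 7, 44997648 to 45002848, plus strand), which most cells make without stimulation, had 1860.4, 2074 and 1754 normalised counts with vehicle and 1464, 1487 and 1441 with 12-HETE. Its log2 fold change of -0.37 ± 0.10 had a DESeq2 adjusted p of 8.49e-04 but was a 1.30-fold difference, under the threshold of 2.

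Irf9 (ENSMUSG00000002325, chromosome 14, 55603571 to 55610030, plus strand), which gives ISGF3 its DNA contact, had 2366, 2523 and 2394 normalised counts with vehicle and 212, 211 and 216 with 12-HETE. It fell by 3.51 ± 0.10, or 11.4-fold (DESeq2 adjusted p 5.26e-243), and its 12-HETE libraries lay within 5 counts of each other. Stat2, whose product joins IRF9 in ISGF3, changed by -4.34 ± 0.10 on the same scale.

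Irf1 (ENSMUSG00000018899, chromosome 11, 53770014 to 53778374, plus strand) had 2588, 2469 and 2423 normalised counts with vehicle and 988, 919.6 and 841 with 12-HETE. It fell by 1.44 ± 0.10, a 2.72-fold change with a DESeq2 adjusted p of 3.69e-45. Irf2 (ENSMUSG00000031627, chromosome 8, 46739732 to 46847458, plus strand) had 915, 759 and 899 normalised counts with vehicle and 678, 698 and 685 with 12-HETE. Its log2 fold change was -0.32 ± 0.12 (DESeq2 adjusted p 0.016), 1.25-fold in size. The log2 ratio of Irf1 to Irf2 per kb of exon, activator over repressor, was 2.44 ± 0.14 with vehicle and 1.31 ± 0.12 with 12-HETE (SD, n = 3). The lowest vehicle ratio, 2.33, lay above the highest 12-HETE ratio, 1.44.

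Irf8 (ENSMUSG00000041515, chromosome 8, 120736358 to 120756694, plus strand), a factor known from myeloid cells, was well detected in EO771, with 1535, 1192 and 1199.7 normalised counts with vehicle and 1139, 1099 and 1098 with 12-HETE. Its log2 fold change of -0.24 ± 0.13 (95% interval -0.49 to 0.02, DESeq2 adjusted p 0.125) did not pass the test. The 10 myeloid and dendritic markers summed to 16.4 to 20.2 CPM in the same libraries, with Tyrobp and Siglech at 0 in both groups and Csf1r between 15.8 and 71.7 normalised counts. Spi1, which encodes PU.1, was between 0 and 7.64 normalised counts. Irf4 (ENSMUSG00000021356, chromosome 13, 30749226 to 30766976, plus strand), known from plasma cells and activated lymphocytes, had 0 counts in 6 of 6 EO771 libraries, where a count of 0 allows up to 3 counts per library, and was not tested.

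**Figure D1:**
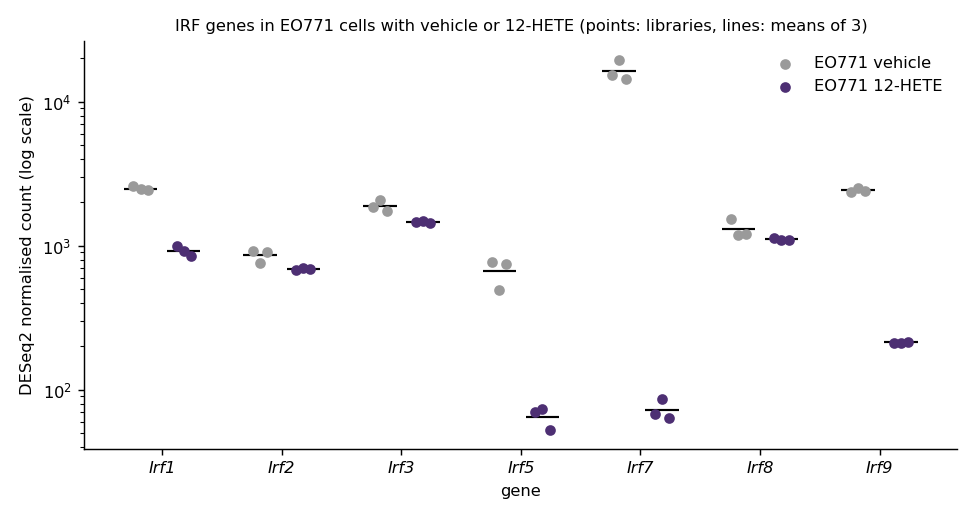
DESeq2 normalised counts of 7 IRF genes in EO771 libraries on a log scale, with points for libraries (grey, vehicle; purple, 12-HETE) and lines for means of 3. The Irf7 libraries fall from between 14453 and 19499.6 to between 64.0 and 85.7, while the Irf8 libraries stay at or above 1098 in both groups; Irf4, at 0 in every library, is not drawn.

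Levels of different genes were compared per kb of exon, as each member's share of the summed level of the 8 genes. With vehicle, Irf7 made up 66.5 ± 3.7% of the family's level per kb, followed by Irf1 with 9.72 ± 1.1% and Irf3 with 8.49 ± 0.20% (SD, n = 3). With 12-HETE, Irf3 made up 43.1 ± 0.86%, Irf1 23.3 ± 1.2% and Irf8 16.0 ± 0.38%, and Irf7 1.94 ± 0.28%. A larger share of Irf3 does not mean a higher level, since its level per kb was 551 ± 47.3 with vehicle and 425 ± 6.76 with 12-HETE. With the length of the transcript that has the longest coding sequence in place of all exons, a choice made after the data were seen, the share of Irf7 was 67.8% with vehicle and 1.93% with 12-HETE.

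**Figure D2:**
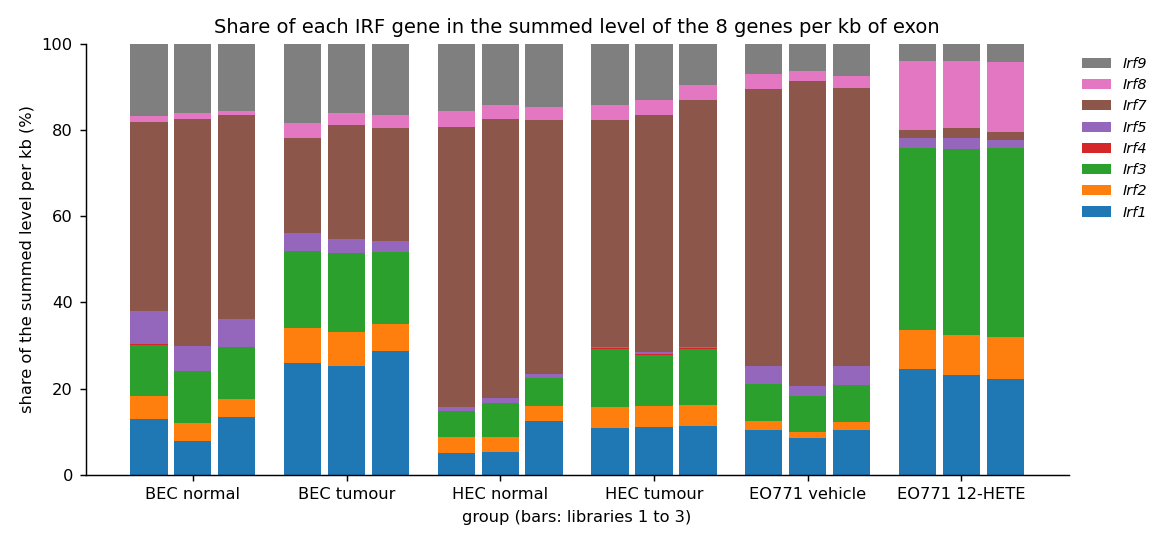
Share (%) of each IRF gene in the summed level of the 8 genes per kb of exon, with 1 bar for each of the 18 libraries. Irf7 holds the largest share in BEC normal, HEC normal, HEC tumour and EO771 vehicle libraries and 1.78 to 2.27% in EO771 12-HETE libraries, where Irf3 holds the largest.

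The pathway around the family was read from lists. Of 20 listed genes induced through ISGF3, 20 were called lower with 12-HETE, with a median log2 fold change of -8.37, or -8.33 with 3 genes that were at the counting floor with 12-HETE set to that floor. Examples were Isg15, a ubiquitin-like modifier (-8.23 ± 0.20), Oasl2 (-8.52 ± 0.22) and Xaf1 (-5.32 ± 0.14). Of 17 tested sensors, adaptors and kinases, 6 were called lower (median -0.37), among them the RNA sensors Ddx58, which encodes RIG-I (-3.03 ± 0.13), and Dhx58 (-5.02 ± 0.18). Zbp1 of the same list had 2447 ± 332 normalised counts with vehicle and 3.01 ± 1.75 with 12-HETE (SD, n = 3), near the counting floor. Of 11 tested interferons, receptors and JAK-STAT genes, 2 were called lower (median -0.20), and Stat3 had a log2 fold change of -0.34 ± 0.08. Of 10 inhibitors, 4 were called lower, with the ISG15 protease Usp18 at -4.73 ± 0.11, Trim21 at -2.41 ± 0.16 and Irf2bpl at -1.62 ± 0.13. Of 3 tested partners of IRF4 and IRF8, Junb (-2.22 ± 0.10), Jund (-1.08 ± 0.13) and Batf2 (-3.40 ± 0.60) were all called lower. The median over all genes tested was 0.00 in the same comparison, and 7.79% of all genes tested were called lower.

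The second comparison asked how the family differed in HECs when the mouse carried a tumour. Irf5, Irf7 and Irf9 fell, Irf4 rose from a level near 0, and Irf2 and Irf8 moved by less than 2-fold. Of 8 members tested, 3 were called lower and 1 higher, while 3.21% of 18511 genes tested were called lower and 7.8% called in either direction. The ranges of HEC normal and HEC tumour were separate in 6 of 8 members, against 48.8% of all genes tested. The median log2 fold change was -0.63 over the members and 0.02 over all genes.

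Irf7 had 25117, 24454 and 24482 normalised counts in HEC normal and 11362, 12246 and 12114 in HEC tumour. Its log2 fold change was -1.05 ± 0.14 (DESeq2 adjusted p 3.98e-12), so it sat close to the threshold of 1, and with size factors from total counts it was -0.98 and not called. Irf5 had 289, 319 and 325 normalised counts in HEC normal and 50.8, 82.9 and 48.7 in HEC tumour. This was the largest fall of the family in HECs, by 2.34 ± 0.23 (DESeq2 adjusted p 2.14e-23). Irf3 had 2071, 2790 and 2467 normalised counts in HEC normal and 2679, 2414 and 2505 in HEC tumour, and the groups overlapped (log2 fold change 0.05, 95% interval -0.19 to 0.30).

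Irf9 had 8533, 7604 and 8718 normalised counts in HEC normal and 4374, 4094 and 2880.1 in HEC tumour. It fell by 1.13 ± 0.14 (DESeq2 adjusted p 1.44e-14), but the call rested on the lowest library, since without HEC tumour replicate 3 the change was -0.97. Irf2 had 2892, 2540.4 and 2755 normalised counts in HEC normal and 2033, 2033 and 2041 in HEC tumour. These 3 tumour libraries were nearly identical, with an SD of 4.73, and the log2 fold change of -0.42 ± 0.08 (DESeq2 adjusted p 4.15e-06) was 1.34-fold in size. Irf1 had 2057, 2089 and 5518 normalised counts in HEC normal and 2479, 2613 and 2524 in HEC tumour. The library HEC normal replicate 3 stood far above the others, and the log2 fold change turned from -0.34 ± 0.33 (DESeq2 adjusted p 0.453) to 0.29 without that library, so no direction could be given for Irf1 in HECs.

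Irf8 had 2703, 2400.0 and 2398 normalised counts in HEC normal and 1400.3, 1406 and 1386 in HEC tumour. The change of -0.84 ± 0.10 (DESeq2 adjusted p 2.02e-14) was 1.79-fold and so not called. The myeloid and dendritic markers summed to 485 to 509 CPM in HEC normal and 356 to 375 in HEC tumour. Lyz2 was between 359 and 452 normalised counts in HEC normal and between 222 and 417 in HEC tumour. Csf1r and Tyrobp were at most 45.6 in these libraries, and Siglech and Xcr1 were at 0. Most of the sum therefore came from other genes of the list. The part of myeloid cells in the fall of Irf8 was not tested. Irf4 had 4.1, 0 and 0 normalised counts in HEC normal and 39.2, 42.4 and 54.2 in HEC tumour. With each step taken as 1 fragment, this amounts to about 1 fragment against 34 over the 3 libraries of each group. The ratio was 36.8, with an exact 95% counting interval of 6.18 to 1500.0 under the same assumption. The fitted log2 fold change of 5.08 ± 1.35 (DESeq2 adjusted p 8.51e-04) depends on the near absence of counts in HEC normal. With values divided by the step, Irf4 fell under the minimum mean value of 10 and was not tested, and against a log2 fold change of 1 its adjusted p in DESeq2 was 0.201. In the same libraries the 8 T cell markers summed to 6.74 to 8.21 CPM in HEC normal and 4.25 to 5.60 in HEC tumour, with Cd3d, Cd3e, Cd3g and Cd8a at 0 in both groups. The 8 B cell and plasma cell markers summed to 10.2 to 11.2 and 4.68 to 5.23 CPM, with Ms4a1 at 0 in both groups, and the leukocyte markers to 2.06 to 5.34 and 1.46 to 1.80. Single markers of plasma cells and B cells went different ways. Jchain had 0 normalised counts in 3 of 3 HEC normal libraries and 9.23, 7.89 and 8.86 in HEC tumour, a few fragments each. Cd79a had 12.2, 16.3 and 14.3 against 19.6, 23.7 and 57.6. Mzb1 had 6.1, 34.6 and 46.8 against 20.8, 30.6 and 42.1, and Cd79b was at 0 in HEC tumour but not in HEC normal. The part of such cells in the Irf4 result was not tested.

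**Figure D3:**
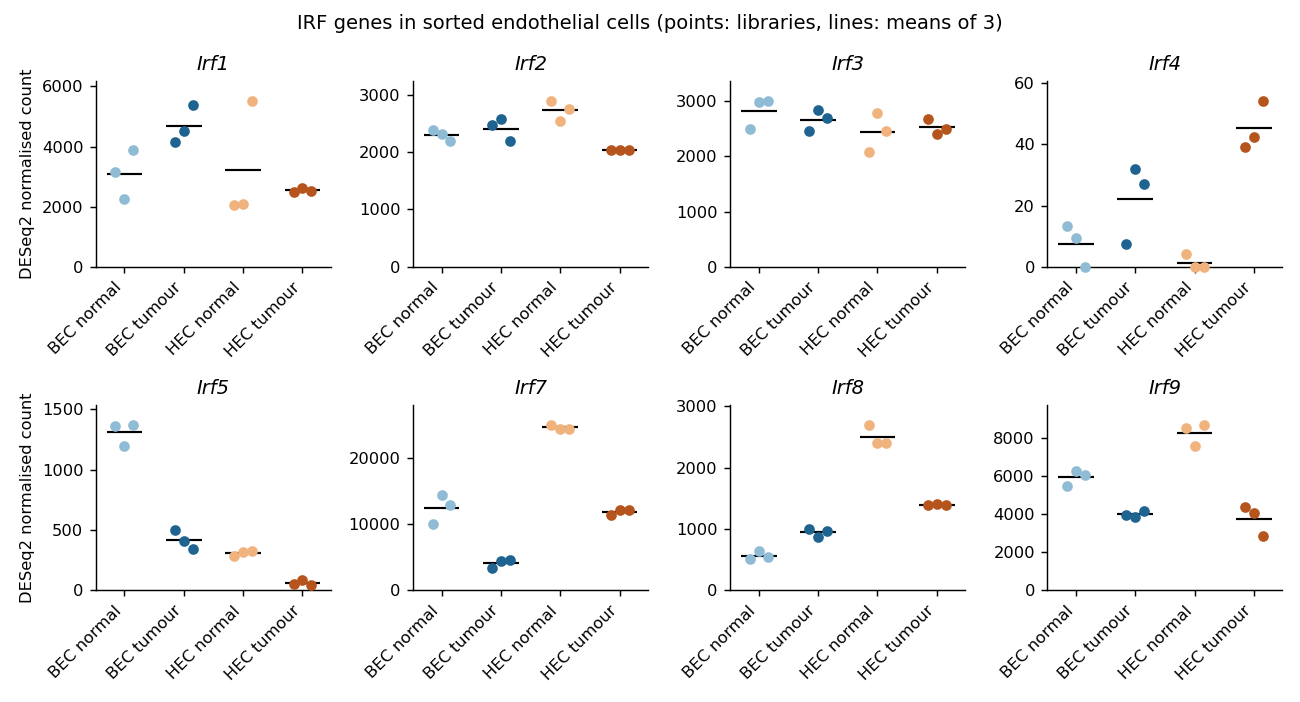
DESeq2 normalised counts of the 8 IRF genes in 12 sorted endothelial libraries, 1 panel per gene with its own axis from 0; points are libraries and lines are means of 3. Irf7 and Irf5 are lower with tumour in both cell types, Irf8 is lower in HECs (2500.2 to 1397) and higher in BECs (567 to 949), and Irf1 shows 1 HEC normal library at 5518.

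The third comparison asked the same of BECs. Irf5 and Irf7 fell, Irf8 rose and Irf9 fell by less than 2-fold, and the other members did not pass the test. Of 8 members tested, 2 were called lower, against 10.8% of 18511 genes called lower and 23.3% called in either direction, so the share of members called in either direction was near the background. No member was called higher by DESeq2 or by the edgeR quasi-likelihood test, although 1 had an unadjusted p under 0.05 in that direction. The ranges of BEC normal and BEC tumour were separate in 5 of 8 members, against 59.5% of all genes. The median log2 fold change was -0.01 over the members and 0.01 over all genes.

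Irf7 had 10108, 14436 and 12982 normalised counts in BEC normal and 3350, 4516 and 4662 in BEC tumour, and fell by 1.58 ± 0.14 (DESeq2 adjusted p 4.06e-27). Irf5 had 1367, 1193 and 1374 normalised counts in BEC normal and 501, 408 and 342 in BEC tumour, and fell by 1.66 ± 0.20 (DESeq2 adjusted p 3.79e-16). Both genes fell about 3-fold, and no tumour library reached a normal one. The 7 fibroblast and pericyte markers summed to 204 to 211 CPM in BEC normal and 33.3 to 58.1 in BEC tumour, and their part in the lower levels of members was not tested. Irf3 was between 2503 and 3005 in BEC normal and between 2457 and 2842 in BEC tumour (log2 fold change -0.09, 95% interval -0.33 to 0.16).

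Irf9 had 5500.2, 6273 and 6068 normalised counts in BEC normal and 3964, 3883 and 4179.5 in BEC tumour. Its log2 fold change of -0.57 ± 0.14 (DESeq2 adjusted p 1.44e-04) was 1.48-fold in size. Irf1 had 3143, 2239 and 3886 normalised counts in BEC normal and 4143, 4516 and 5385 in BEC tumour. Every tumour library lay above every normal one, yet the log2 fold change of 0.60 ± 0.33 (DESeq2 adjusted p 0.109) did not pass the test. Irf2 was between 2185 and 2393 in BEC normal and between 2191 and 2573 in BEC tumour, and its groups overlapped (log2 fold change 0.07, 95% interval -0.10 to 0.23).

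Irf8 had 515, 641 and 544 normalised counts in BEC normal and 1005, 867 and 975 in BEC tumour. The rise of 0.75 ± 0.11 (DESeq2 adjusted p 5.16e-11) was 1.68-fold, under the threshold of 2. Leukocyte genes rose in the same libraries. Spi1, whose product binds DNA with IRF8, had 34.4, 0 and 8.13 normalised counts in BEC normal and 979.5, 865 and 706 in BEC tumour. Ptprc, which encodes CD45, was at most 24.7 in BEC normal and at 855, 728 and 401 in BEC tumour, and Lyz2, a lysozyme of myeloid cells, at most 436 in BEC normal and 61600, 56090 and 38200 in BEC tumour. Their part in the Irf8 result was not tested. Irf4 had 13.2, 9.4 and 0 normalised counts in BEC normal and 7.4, 32.1 and 27.0 in BEC tumour, about 6 fragments against 21, and its log2 fold change of 1.55 ± 1.19 (DESeq2 adjusted p 0.271) did not pass the test. T cell markers in these libraries summed to 28.8 to 47.5 CPM in BEC tumour and 4.11 to 4.64 in BEC normal.

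The interaction set the change of each member with tumour in HECs against that in BECs. Irf8 was the 1 member called of 8, while 23.3% of all genes tested were called, a larger share than among the members. Its change in HECs less its change in BECs was -1.59 ± 0.15 (DESeq2 adjusted p 1.77e-24), a fall in HECs against a rise in BECs. As given above, the summed leukocyte and myeloid markers were higher with tumour in BECs and lower with tumour in HECs. In HECs, the single markers Lyz2, Csf1r and Tyrobp overlapped between the groups, while Spi1 and Ptprc did not. Spi1 had 32.49 to 45.64 normalised counts in HEC normal and 10.86 to 13.85 in HEC tumour. Ptprc had 12.21 to 29.62 in HEC normal and at most 4.618 in HEC tumour. The part of these markers in the Irf8 difference was not tested. The falls of Irf9 (-0.56 ± 0.20, adjusted p 0.0114) and Irf5 (-0.69 ± 0.30, adjusted p 0.0461) were deeper in HECs by the same DESeq2 test, each by less than 2-fold. The change of Irf2 was also lower in HECs than in BECs, by the same test (-0.49 ± 0.12, adjusted p 1.36e-04), with tumour changes of -0.42 ± 0.08 and 0.07 ± 0.08. That of Irf7 was less deep in HECs, by 0.53 ± 0.20 (DESeq2 adjusted p 0.0211). Irf1 (-0.94 ± 0.46, adjusted p 0.0797) and Irf4 (3.52 ± 1.80, adjusted p 0.0953) did not pass the DESeq2 test. Without HEC normal replicate 1, HEC normal replicate 2 or BEC normal replicate 3, Irf1 was called as well, and without HEC normal replicate 1 or BEC normal replicate 3 so was Irf4.

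**Figure D4:**
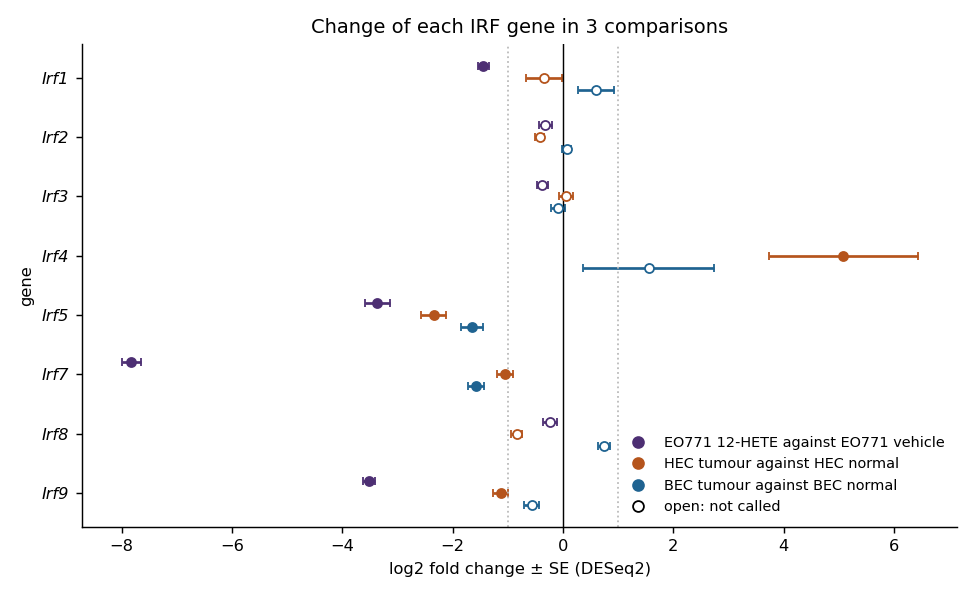
Log2 fold change with its SE for each IRF gene in the 12-HETE comparison of EO771 (purple) and the tumour comparisons of HECs (orange) and BECs (blue); filled points are called, open points are not, and dotted lines mark a fold change of 2. Irf5 and Irf7 are filled and to the left in all 3 comparisons, with Irf7 at -7.82 in EO771 and at -1.05 and -1.58 in HECs and BECs.

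Set side by side, Irf5 and Irf7 were called lower in the 12-HETE comparison and in both tumour comparisons, and Irf9 was called lower in EO771 and HECs. Irf1 was called lower in EO771 only, and the difference from its changes in endothelial cells was not tested, since the EO771 and endothelial libraries were normalised apart. The fall in EO771 was the larger for each of the shared genes: -7.82 against -1.05 and -1.58 for Irf7, -3.36 against -2.34 and -1.66 for Irf5, and -3.51 against -1.13 and -0.57 for Irf9, in EO771, HECs and BECs in turn. Irf3 changed by at most 1.30-fold in the 3 comparisons.

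The same lists were read in the tumour comparisons. Of all genes tested, 3.21% were called lower in HECs and 10.8% in BECs, and 7.8% and 23.3% were called in either direction. Of 20 genes induced through ISGF3, 18 were called lower in HEC tumour (median log2 fold change -1.38), with the antiviral genes Ifit3 at -2.98 ± 0.06, Oas3 at -3.00 ± 0.10 and Rsad2 at -2.02 ± 0.07. In BEC tumour 11 of the 20 were called lower and 3 higher (median -1.18). The genes with the largest Wald statistics in BECs were Rsad2 at 2.24 ± 0.07, Xaf1 at -1.55 ± 0.07 and Mx2 at -2.07 ± 0.10. The other genes called higher in BECs, Ifit2 at 1.75 ± 0.09 and Oasl1 at 1.76 ± 0.50, were named after their values were seen. By the interaction, 7 of the 20 had a change called lower in HECs than in BECs, against 23.3% of all genes called in either direction.

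Stat2 changed by -2.20 ± 0.17 in HECs. In BECs the log2 fold change of Stat2, read after its values were seen, was -0.79 ± 0.17, and its interaction of -1.41 ± 0.24 (DESeq2 adjusted p 2.69e-08) was called. Of 12 tested interferons, receptors and JAK-STAT genes, 3 were called lower in HECs, Stat3 (-1.25 ± 0.10) among them, and 1 in BECs. The shares of all genes called lower were 3.21% and 10.8%. In BECs the kinases Tyk2 (0.71 ± 0.05) and Jak1 (0.66 ± 0.09) rose by less than 2-fold.

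Of 20 sensors, adaptors and kinases, 2 were called lower in HECs (median -0.15) and 2 lower and 2 higher in BECs (median 0.02). These counts were near the 7.8% and 23.3% of all genes called in either direction. Dhx58 fell in both, with log2 fold changes of -2.12 ± 0.10 and -1.38 ± 0.10, and Zbp1, a sensor of Z-form nucleic acid, fell by 2.00 ± 0.20 in BECs and, read after its values were seen, fell by 1.78 ± 0.20 in HECs. Ikbke, a kinase that activates IRF3 and IRF7, rose by less than 2-fold in both (0.58 ± 0.05 and 0.86 ± 0.05), and Ddx58 in HECs was at -0.99 ± 0.08. The genes called higher in BECs were the Toll-like receptor genes Tlr7 and Tlr9, named after their values were seen, which had few or no counts in BEC normal. Of 10 inhibitors, Usp18 was the 1 called lower in HECs (-2.39 ± 0.09). In BECs, Usp18 (-2.37 ± 0.09) and Socs3 (-1.10 ± 0.11) were called lower and 1 gene higher. Ptpn2 in BECs (-0.80 ± 0.07), and Socs3 (-0.65 ± 0.10) and Irf2bpl (-0.35 ± 0.05) in HECs, changed by less than 2-fold. Of 8 tested partners of IRF4 and IRF8, Spi1 was called lower in HECs (-1.68 ± 0.69), from a level of 38.3 ± 6.72 to 11.9 ± 1.67 normalised counts, and higher in BECs (5.87 ± 0.67). Junb was called lower in BECs (-1.26 ± 0.08). The counts of inhibitors and of partners called were also near the shares of all genes called.

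**Figure D5:**
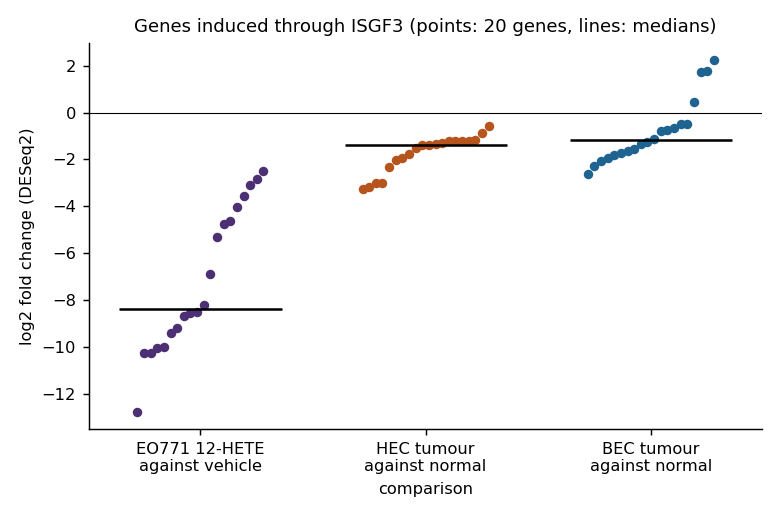
Log2 fold changes of the listed genes induced through ISGF3 in 3 comparisons, with points for genes and lines for medians. The ISGF3 medians are -8.37 in EO771, -1.38 in HECs and -1.18 in BECs, and 3 genes of that list lie above 1 in BECs.

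Without a tumour, HECs and BECs differed in some members, though by DESeq2 members were called no more often than all genes. Of 8 members, Irf8 was called higher and Irf5 lower in HEC normal than in BEC normal, while 32.2% of all genes tested were called. The ranges of the groups were separate in 5 of 8 members, against 66.7% of all genes. Irf8 was 4.42-fold higher (log2 fold change 2.14 ± 0.11, DESeq2 adjusted p 7.21e-87) and Irf5 4.22-fold lower (-2.08 ± 0.20, adjusted p 1.26e-24 by the same test). Irf7 was 1.97-fold higher in HEC normal (0.98 ± 0.14, DESeq2 adjusted p 3.00e-11), just under the threshold, and was called by the edgeR quasi-likelihood test (1.02), with total-count size factors (1.00) and without BEC normal replicate 2 (1.09). Irf9 (0.48 ± 0.14) and Irf2 (0.25 ± 0.08) were higher by less than 2-fold. With a tumour, Irf5 was lower (-2.77 ± 0.22) and Irf7 higher (1.51 ± 0.14) in HECs than in BECs and both were called, against 21.9% of all genes, and the ranges were separate in 6 of 8 members, against 62.7% of all genes. In the same comparison Irf8 was 1.47-fold higher (0.56 ± 0.11), Irf1 1.84-fold lower (-0.88 ± 0.33, DESeq2 adjusted p 0.014) and Irf2 1.18-fold lower. Irf3, Irf4 and Irf9 did not pass the test.

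The order of the 4 endothelial groups differed from member to member. From lowest to highest mean, Irf8 ran from BEC normal (567 ± 66.3) through BEC tumour (949 ± 72.3) and HEC tumour (1397 ± 10.5) to HEC normal (2500.2 ± 176), with no overlap between neighbours (SD, n = 3). Irf5 ran from HEC tumour (60.8 ± 19.2) through HEC normal (311 ± 19.1) and BEC tumour (417 ± 80.0) to BEC normal (1312 ± 103), also without overlap. Irf7 was lowest in BEC tumour (4176 ± 719) and highest in HEC normal (24684 ± 375), and HEC tumour (11907 ± 477) overlapped BEC normal (12509 ± 2200) between them. For Irf9, HEC tumour (3783 ± 794) overlapped BEC tumour (4009 ± 153), and BEC normal (5947 ± 400) and HEC normal (8285 ± 597) stood above. All neighbours overlapped for Irf1 and Irf3, and for Irf2 HEC tumour alone stood apart, below the rest. For Irf4, HEC tumour stood above the other groups, whose neighbours in the order overlapped.

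Per kb of exon, Irf7 was the most abundant member in BEC normal, HEC normal and HEC tumour, with 48.1 ± 4.5%, 62.8 ± 3.5% and 55.0 ± 2.3% of the family's summed level (SD, n = 3). In BEC tumour, Irf1 (26.6 ± 1.9%) and Irf7 (25.0 ± 2.5%) had shares that overlapped between libraries. Irf9 kept between 9.54 and 18.3% in the 12 endothelial libraries, and Irf4 at most 0.20%. The log2 ratio of Irf1 to Irf2 per kb was 1.29 ± 0.44 in BEC normal, 1.85 ± 0.30 in BEC tumour and 1.21 ± 0.04 in HEC tumour. In HEC normal it was 0.40, 0.61 and 1.90, the last in the library in which Irf1 stood apart.

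The genes whose levels were most like each member over the 12 endothelial libraries were found by Pearson's r of log2(normalised count + 1), which describes 4 groups sharing libraries and depth more than it describes single genes. Irf7 was most like Bst2, an interferon-induced membrane protein that tethers virus particles (r = 0.997), followed by Hmga1 and Galk1 (both 0.989). Irf5 was most like Dym (0.990), Zcchc24 (0.989) and Kif21b (0.988), and Irf8 most like Psrc1, Ppp1r35 (both 0.995) and Gch1 (0.993). For Irf9 they were B9d2 (0.969), Ethe1 (0.957) and Ube2h (0.953), and for Irf2 Dcaf5 (0.947), Prr12 (0.934) and the RNA sensor gene Ifih1 (0.926). Irf3, which varied least between groups, was most like Gm6478 (0.937), Gm42517 (0.865) and Gm8226 (0.846), and Irf1 most like Gm45737, Sp4 (both 0.831) and Gm12091 (0.826). Irf4, which rests on few fragments, was most like Fubp3 (0.938), Faddos (0.935) and Azin1 (0.920).

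Exons of 5 members overlap those of another gene in the annotation, and whether counting used the strand is not stated, so reads of the shared bases cannot be assigned with certainty. The largest overlap was that of Irf5 with Tnpo3 on the opposite strand, 411 bases or 14.1% of the exon length of Irf5. Tnpo3 had a log2 fold change of 0.52 ± 0.09 in EO771, 0.17 ± 0.20 in HECs and 0.13 ± 0.20 in BECs. The values in HECs and BECs were smaller than their SE, and the part of Tnpo3 in the Irf5 result was not tested. Irf9 shares 123 bases (2.3%) with Rnf31 on the same strand. Rnf31 moved with Irf9 in EO771 (-1.44 ± 0.11) and HECs (-1.03 ± 0.10) and was at 0.32 ± 0.10 in BECs, where Irf9 was lower with tumour, and its part in the Irf9 result was not tested. The overlaps of Irf1 with Gm17334 (3.4%), Irf3 with Bcl2l12 (2.6%) and Irf7 with Phrf1 (1.2%) are on opposite strands. In EO771, Phrf1 changed by -0.33 ± 0.08 where Irf7 changed by -7.82. Bcl2l12 changed there by -0.50 ± 0.17, in the direction of Irf3 (-0.37 ± 0.10). The part of these genes in the results of the members was not tested. Irf2, Irf4 and Irf8 overlap no other gene.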

How the data were processed

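The authors used STAR for alignment to GRCm38 and featureCounts for counting. The endothelial values they deposited are whole numbers in steps of about 3.7 and were taken as estimated counts, with no rounding needed. For EO771 the authors deposited raw counts by gene symbol. The methods describe a directional kit and, ahead of the RNA editing analysis of EO771, removal of duplicates with prinseq, but do not state whether the deposited counts were made after it or with strand. The labels name another kit.

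Genes with a mean value of at least 10 were fitted with DESeq2 1.42.0 in R 4.3.3, 12 endothelial libraries in 1 fit and 6 EO771 libraries in another, with group as the only term. Errors of fold changes are SE, and those of levels SD. Alternatives were edgeR 4.0.16, other size factors, filters and call rules, single libraries left out, replicate number as a block, endothelial values divided by the step, and fits of 2 groups alone. Fits were tested on simulated data. Coordinates are from GENCODE M21 on GRCm38. Intervals of counts cover counting error alone, because no molecular identifiers were used to tell molecules from copies.

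All 8 members are named in every comparison. Of each list, at most the 3 genes with the largest Wald statistics in the 12-HETE and tumour comparisons are named, together with the 3 genes most like each member and genes that overlap one. One gene of the pathway, and a list named for it, are not reported here. The members and lists were chosen with earlier results of these data known.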

Additional observations from a re-analysis of the deposited data

Results flagged for a closer look

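In 5 of 8 members, HECs and BECs changed unequally with tumour, with a DESeq2 adjusted p under 0.05 for the difference itself. The same was so for 8643 of all 18511 genes tested. As log2 differences of HECs less BECs these were -1.59 for Irf8, -0.69 for Irf5, -0.56 for Irf9, -0.49 for Irf2 and 0.53 for Irf7. Irf8 had opposite directions, since 3 of 3 HEC tumour libraries lay below every HEC normal library and 3 of 3 BEC tumour libraries above every BEC normal library.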

How the results depend on the processing

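In EO771, 4 members were called lower and 0 higher under every alternative tried but a call by adjusted p alone. With an adjusted p under 0.05 alone, 6 members were lower in EO771 in place of 4, 5 were lower in HEC tumour in place of 3, 3 were lower and 1 higher in BEC tumour in place of 2 and 0, 4 were higher in HEC normal than BEC normal in place of 1, 3 were lower and 2 higher in HEC tumour than BEC tumour in place of 1 each, and the interaction called 4 lower and 1 higher in place of 1 and 0. By adjusted p alone, 2813 of all 11602 genes tested were lower in EO771. Of 18511 endothelial genes tested, 3426 were lower in HEC tumour, and 5034 were lower and 4908 higher in BEC tumour. In HEC normal against BEC normal 5815 of them were higher. In HEC tumour against BEC tumour 5256 were lower and 4801 higher, and the interaction called 4397 lower and 4246 higher. Tested against a log2 fold change of 1, HEC tumour had 1 member lower and 0 higher, and with values divided by the step 0 higher. HEC normal against BEC normal had 2 higher by edgeR and with total-count size factors. With 1 library left out, counts ran from 2 to 3 lower in HEC tumour, from 1 to 2 in each direction in HEC normal against BEC normal, and from 1 to 2 lower and 0 to 1 higher in the interaction, and did not move in the other comparisons.

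Directions that turned were those of Irf1 in HEC tumour without HEC normal replicate 3 (range with 1 library left out -0.59 to 0.29), Irf3 in HEC tumour without HEC normal replicate 1 (-0.056 to 0.15), Irf1 in HEC normal against BEC normal under the replicate block (-0.024) and without BEC normal replicate 2 (-0.14) or HEC normal replicate 3 (-0.57 to 0.31), and Irf9 in HEC tumour against BEC tumour without HEC tumour replicate 3 (-0.20 to 0.08). The causes were not tested. The order of groups was the same for 8 of 8 members on TMM-scaled CPM.

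Whether equal replicate numbers paired libraries was not settled. Deviations of same-numbered libraries correlated between -0.01 and 0.03 in HECs, -0.05 and 0.20 in BECs, and 0.09 and 0.33 in EO771. Each EO771 vehicle library correlated best with its own number. So did replicates 2 and 3 of HEC normal and replicates 1 and 3 of BEC normal. The replicate block changed no call, with 3 members lower and 1 higher in HEC tumour, 2 lower in BEC tumour and 4 lower in EO771. Irf4 rests on about 1 to 34 fragments per group, so depth limits what can be said of it.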
